A study of Mus musculus with 12 samples.

Results

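The 438 peaks described here carry a seed match to miR-144-5p, the passenger strand of the miR-144 hairpin. They were taken from 106382 Argonaute (Ago) peaks as those whose deposited miR-144-5p code was a 6-mer (code 11), 7-mer-A1 (12), 7-mer-m8 (13) or 8-mer (14), with a code of 0 for both miR-144-3p and miR-451a, the main microRNAs of the same locus. No read count entered this choice. A further 237 peaks with a miR-144-5p seed match were left out because they also had a code of miR-144-3p or miR-451a. In HITS-CLIP, RNA crosslinked to Ago by ultraviolet light is precipitated with an antibody and sequenced, so that peaks of reads mark where Ago sat. The study compared C57BL/6J mouse fetal liver without the locus that encodes miR-144 and miR-451 (KO) with wild-type fetal liver (WT), using 100000000 cells per precipitation. The 12 libraries formed 4 groups of 3, namely KO Ago (libraries 3, 12 and 13), WT Ago (1, 9 and 10), KO IgG (4, 8 and 14) and WT IgG (2, 6 and 11). The control IgG libraries measure RNA recovered without an Ago antibody. The KO lacks the whole locus, so all 3 of its microRNAs are absent together in every KO library and their effects cannot be told apart by genotype.

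A microRNA hairpin yields a duplex of which one strand, the guide, is usually kept by Ago, while the other, the passenger, is mostly discarded. A passenger strand that does enter Ago can pair with messenger RNAs through its own seed, the bases near its 5′ end. This locus is transcribed under GATA1 in red cell precursors, the most abundant cells of the fetal liver, where miR-451a matures through Ago2 cleavage and miR-144 through Dicer.

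The mature sequences from RefSeq (GRCm38.p6) are shown because the seed, in capitals and covering bases 2 to 8, is what the deposited codes refer to. All 3 lie on the plus strand of chromosome 11, miR-144-5p at 78073010 to 78073032, miR-144-3p at 78073047 to 78073066 and miR-451a at 78073186 to 78073207.
miR-144-5p: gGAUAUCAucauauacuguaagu
miR-144-3p: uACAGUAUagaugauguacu
miR-451a: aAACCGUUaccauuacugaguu
The seeds of the 3 microRNAs differ. Among 1738 mature mouse microRNAs searched, miR-144-5p was the only 1 with its seed. Its 6-mer site is GATATC, its 7-mer-A1 site GATATCA, its 7-mer-m8 site TGATATC and its 8-mer site TGATATCA, and this 8-mer equals its own reverse complement, which the 8-mers of miR-144-3p and miR-451a do not. No genome was used here, so the letters under the single peaks are not shown and the miR-144-5p codes are taken as deposited.

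Libraries held 147969 to 341061 reads in peaks in KO Ago, 202876 to 452157 in WT Ago, 24622 to 42916 in KO IgG and 25985 to 42399 in WT IgG. No peak overlapped the locus itself, so the genotype is taken from the labels. Of 30 erythroid genes, 23 had a peak, and their peaks held 1.76 to 2.09% of the reads in KO Ago libraries and 2.27 to 2.73% in WT Ago libraries. The 7 without a peak under the symbols searched were the globin genes Hba-a1, Hba-a2, Hbb-bs, Hbb-bt and Hbb-y, with Epb41 and Epb42. All 18 hepatocyte genes had a peak, with 1.27 to 2.49% of the reads in KO Ago libraries and 0.692 to 2.04% in WT Ago libraries. In the IgG libraries the erythroid genes held 1.83 to 2.83% in KO and 1.51 to 2.61% in WT. The erythroid share was thus lower in every KO Ago library than in any WT Ago library but overlapped between the IgG libraries, and its part in the results below was not tested. The shares count every peak of a gene, including peaks with a code of miR-144-3p or miR-451a. Fewer Ago reads at such sites, fewer cells of a type and less RNA per cell cannot be told apart in these bulk samples. The labels speak of 3 replicates per genotype without saying that each was a separate liver, so p-values measure the spread between libraries, part of which may be technical.

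The miR-144-5p seed peaks were mostly shallow. A member held 3 to 199 reads over the 6 Ago libraries, with a median of 11 and quartiles of 7 and 20, against a median of 10 for all peaks. The median width was 30 nt, against 27 nt for all peaks. By the length of the match, 168 were 6-mers, 106 7-mer-A1, 100 7-mer-m8 and 64 8-mers, and the median depth of the classes lay between 10 and 12 reads. The peaks lay in 355 named genes and 60 were intergenic. Coding sequence held 195 (44.5% of members, against 33.7% of all peaks) and 3′UTRs held 118 (26.9% against 28.0%), followed by introns with 44, pseudogenes with 11 and 5′UTRs with 5. Cpeb4, an RNA-binding regulator of translation that erythroid cells use in terminal differentiation, and Caprin1, an RNA-binding protein of stress granules, each held 3 members, and 19 further genes are among the 21 that held at least 2. Few members had a code for another microRNA in the table: 23 for miR-16-5p, 5 for miR-122-5p and 5 for miR-21a-5p.

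All members together took overlapping shares of the reads in KO and WT. In KO Ago libraries 3, 12 and 13 the share was 0.422%, 0.489% and 0.449% of the reads in peaks, and in WT Ago libraries 1, 9 and 10 it was 0.521%, 0.478% and 0.455%. The means were 0.453% ± 0.0338 in KO Ago and 0.485% ± 0.0334 in WT Ago (SD, n = 3 each), and the groups overlapped. IgG libraries gave lower shares, 0.211 to 0.350% in KO IgG and 0.250 to 0.395% in WT IgG. Every Ago library lay above every IgG library of either genotype.

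Split by the length of the seed match, the peaks did not move together. The 64 peaks with an 8-mer match, a split made after the values were seen, held 347, 413 and 453 RPM (reads per 1000000 reads in all peaks) in KO Ago libraries 3, 12 and 13, and 1003, 688 and 730 in WT Ago libraries 1, 9 and 10. Every KO Ago library lay below every WT Ago library, with means of 404 ± 53.4 in KO and 807 ± 171 in WT (SD, n = 3 each). The ratio of means was 0.501 and the difference of mean log2 levels -0.98 ± 0.20 (SE). The level rested on 277 KO Ago reads and 752 WT Ago reads. In the IgG libraries the same peaks held 280, 104 and 447 RPM in KO (26 reads in all) and 500, 660 and 115 in WT (50 reads in all), so IgG levels overlapped between genotypes and also overlapped the KO Ago levels.

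The shorter matches showed much smaller differences. The 7-mer-m8 peaks held 1152, 1372 and 1122 RPM in KO Ago and 1397, 1285 and 1232 in WT Ago, a ratio of means of 0.931. The 7-mer-A1 peaks held 1112, 1173 and 1122 RPM in KO Ago and 1294, 1130 and 1139 in WT Ago, a ratio of 0.956. The 6-mer peaks held 1605, 1929 and 1798 RPM in KO Ago and 1517, 1674 and 1454 in WT Ago, a ratio of 1.15. In each of these 3 classes the KO and WT libraries overlapped, and the log2 differences were -0.11 ± 0.11, -0.06 ± 0.07 and 0.20 ± 0.10 (SE of the difference).

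**Figure D1:**
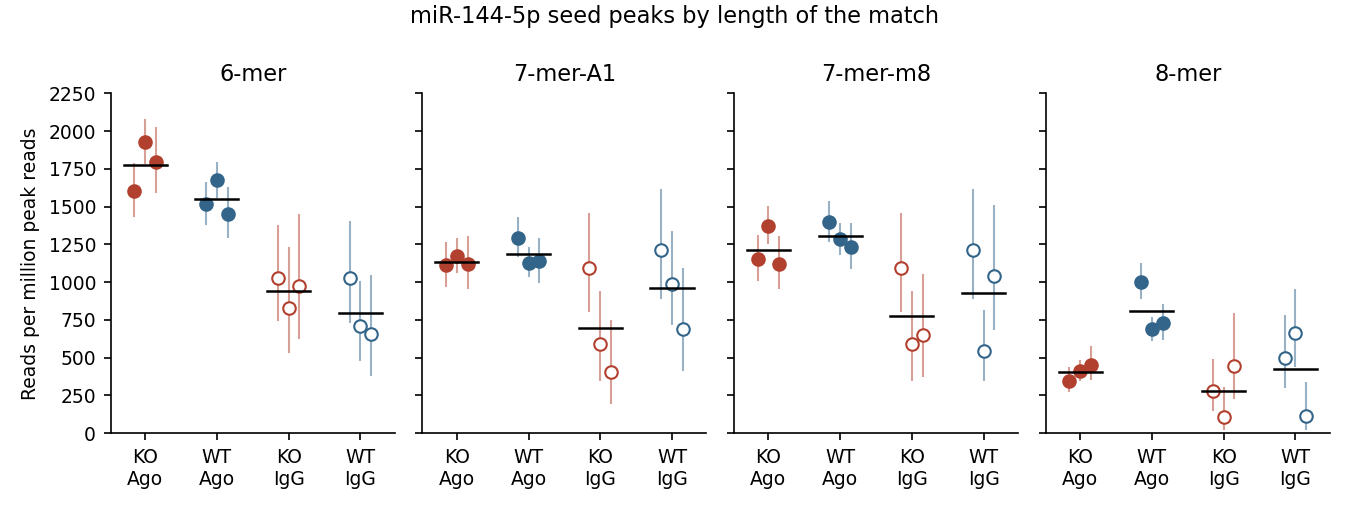
RPM summed over the miR-144-5p seed peaks of each match length, 1 point per library (filled for Ago, open for IgG; KO red, WT blue), with exact 95% counting intervals and the group mean as a black bar. KO Ago lies below WT Ago without overlap for the 8-mers only, at means of 404 and 807.

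The reads of peaks without a code of the locus set the level against which these ratios are read. Peaks with code 0 for all 3 microRNAs had a ratio of 1.15 between KO Ago and WT Ago, holding 609156 RPM in KO Ago and 531229 in WT Ago on average. Relative to those peaks, the miR-144-5p ratio was 1.00 for the 6-mers, 0.834 for the 7-mer-A1, 0.812 for the 7-mer-m8 and 0.437 for the 8-mers. On that scale all members together no longer overlapped between KO and WT, with a ratio of means of 0.813 and a log2 difference of -0.30 ± 0.11 (SE). The 7-mer-A1 groups no longer overlapped either, with a log2 difference of -0.26, and the 7-mer-m8 groups still did, at -0.30. Peaks with an offset 6-mer of miR-144-5p, a weaker match that is not part of the 438, had a ratio of 1.05 relative to the same peaks. A ratio near 0.8 without overlap was also seen outside the locus. On the same scale, 395 6-mer peaks of miR-21a-5p without a code of the locus had a ratio of 0.830. Their log2 difference was -0.27, and KO and WT did not overlap. The 7-mer-A1, 7-mer-m8 and 8-mer peaks of miR-21a-5p had ratios of 1.02, 1.11 and 1.08, with overlap.

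The 8-mers also had the lowest ratio for the guide strand miR-144-3p and for miR-451a. For miR-144-3p the ratio of KO to WT means was 0.831 for 6-mers, 0.515 for 7-mer-A1, 0.604 for 7-mer-m8 and 0.285 for 8-mers. For miR-451a the ratios were 0.158, 0.129, 0.150 and 0.102 for the same classes. For miR-16-5p, a microRNA from another locus, they were 1.14, 1.29, 1.27 and 1.36. The 8-mers of miR-144-5p thus had a ratio near that of the 7-mer-A1 peaks of miR-144-3p. These ratios share the same 6 libraries, and no test was made between the microRNAs.

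**Figure D2:**
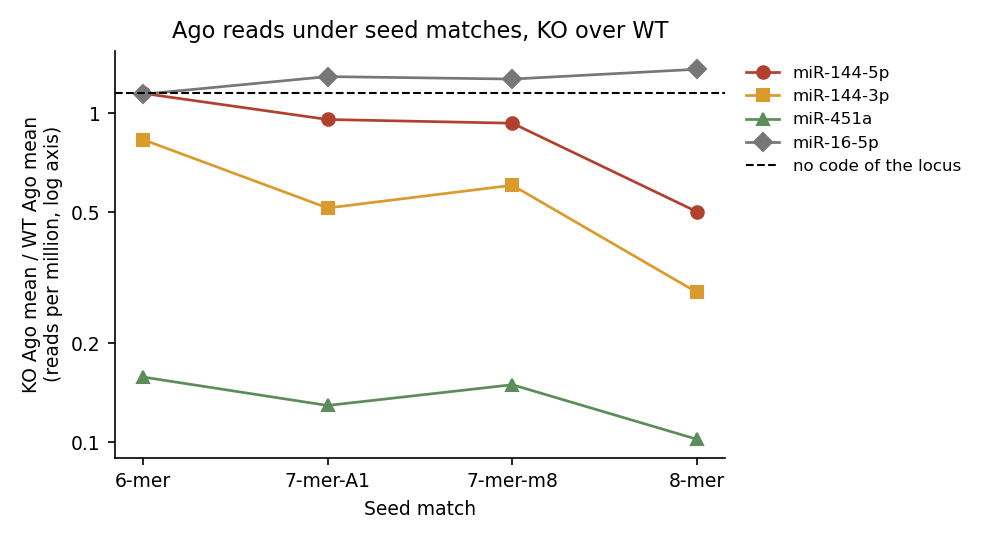
Ratio of mean RPM, KO Ago over WT Ago (log axis), by length of the seed match for miR-144-5p, miR-144-3p, miR-451a and miR-16-5p, with the dashed line at the ratio of 1.15 for peaks with no code of the locus. The miR-144-5p line leaves the dashed line mainly at the 8-mer, at 0.501, while miR-451a lies near 0.1 to 0.16 throughout.

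The lower 8-mer level was seen in each kind of region. The 30 coding 8-mer peaks held 217 ± 35.1 RPM in KO Ago and 354 ± 82.0 in WT Ago, a ratio of 0.612. The 13 3′UTR 8-mer peaks held 68.2 ± 28.3 in KO Ago and 178 ± 22.3 in WT Ago, a ratio of 0.383. The 9 intron peaks had a ratio of 0.369 and the 11 intergenic peaks one of 0.510 (SD, n = 3 libraries each). KO and WT Ago libraries did not overlap in any of these 4 groups. RPM sets Ago and IgG libraries to the same total of peak reads, and Ago against IgG depended on the scaling, as described below. In RPM the intergenic 8-mer peaks were not above IgG, with 65.8 in KO Ago and 63.9 in KO IgG, and 129 in WT Ago and 157 in WT IgG. The intron peaks held 52.0 RPM in KO Ago and 122 in KO IgG, and 141 in WT Ago and 68.8 in WT IgG, with 7 to 19 IgG reads behind each of these IgG levels. Coding and 3′UTR 8-mer peaks averaged 75.5 and 15.5 RPM in KO IgG and 118 and 65.6 in WT IgG, below their Ago means in both genotypes. These IgG levels rest on only 7 and 2 reads in KO and 13 and 8 in WT. For the 6-mer and 7-mer peaks the ratios were 1.05 in coding sequence, 1.05 in 3′UTRs, 1.15 in introns and 0.789 between genes, with overlap in each.

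Summed, the other peaks of the same genes did not show the difference. The 53 8-mer peaks in 50 genes held 282, 349 and 385 RPM in KO Ago libraries 3, 12 and 13, and 829, 604 and 601 in WT Ago libraries 1, 9 and 10. The 936 other peaks with no code of the locus, found in 46 of these genes, held 10568, 14399 and 11002 RPM in KO Ago, and 9568, 12595 and 9607 in WT Ago. The ratio of means was 0.499 for the 8-mer peaks and 1.13 for the other peaks, close to the 1.15 of all peaks without a code of the locus. Gene by gene, the KO mean of such peaks was below the WT mean for 14 of the 46 (30.4%), against 34.7% of all genes with such peaks. Every KO Ago library lay below every WT Ago library for 2 of the 46 (4.35%), against 5.62% of all such genes. The reverse held for 9 of the 46 (19.6%), against 13.1%. Among the genes named below, the mean of these peaks was lower in KO for Lbr, Hells (47.6 RPM in KO Ago, 71.9 in WT Ago), Atp2b4 (357 and 467), Sgk3 (253 and 291) and Acss1 (76.7 and 89.0).

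**Figure D3:**
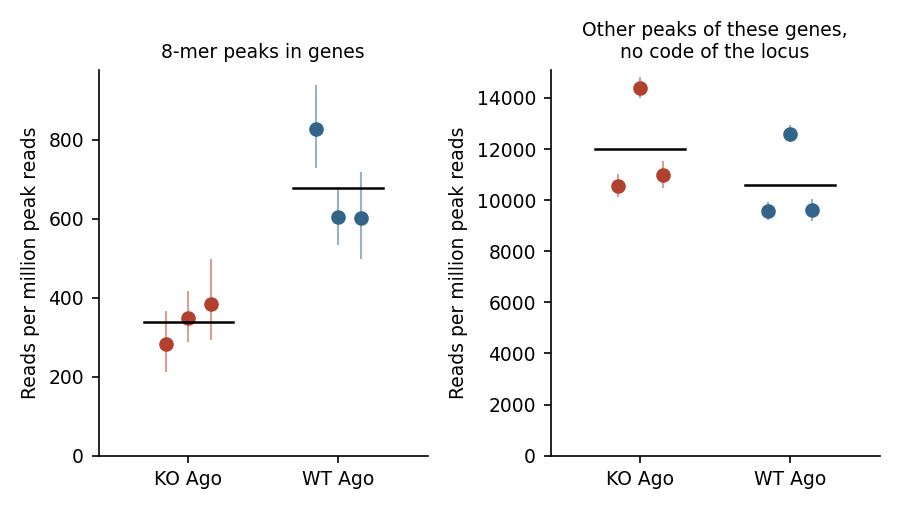
RPM in the Ago libraries for the 8-mer peaks in genes (left) and for other peaks of the same genes with no code of the locus (right), 1 point per library with exact 95% counting intervals and the mean as a bar, both axes from 0. KO lies below WT in the left panel only, and the ratios of means are 0.499 and 1.13.

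The 8-mer ratio was also taken without peaks near other sites of the locus and without peaks of coinciding counts. Of the 64 8-mer peaks, 3 lay within 200 nt of a seed peak of miR-144-3p or miR-451a on the same strand, and 16 within 200 nt of a peak with any code of them. Without these the ratios were 0.535 (61 peaks) and 0.529 (48 peaks). Coinciding counts were looked for only at 15 reads or more over the 12 libraries, so shallower 8-mer peaks were not checked. There the counts of 10 8-mer peaks differed from those of another peak by at most 10% of their reads, summed over libraries. Such agreement arises when reads map to near-identical copies or when counts are low. Without these 10 peaks the ratio was 0.554. Without the Cyth3 peak described below it was 0.521. With the condition on miR-144-3p and miR-451a dropped, 106 8-mer peaks had a ratio of 0.434.

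Peak by peak, the 8-mers also stood apart in count. Every KO Ago library lay below every WT Ago library for 20 of the 64 8-mer peaks (31.3%), 12 of 100 7-mer-m8, 20 of 106 7-mer-A1 and 13 of 168 6-mer peaks. Over all members it was 65 of 438 (14.8%), and over all peaks of the series 10.6%. The reverse held for 33 members (7.53%), 3 of them 8-mers, against 8.31% of all peaks. The KO mean was below the WT mean for 50 of 64 8-mer peaks (78.1%) and for 46.3% of all peaks. No KO Ago read was seen at 10 of the 8-mer peaks (15.6%), against 6.41% of all peaks.

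Cyth3 gave the largest 8-mer peak in WT. It encodes cytohesin 3, an exchange factor for ARF GTPases that binds phosphoinositides. The peak lies in an intron at chromosome 5, 143710118 to 143710145 on the plus strand (mm10), and held 3, 5 and 4 reads in KO Ago libraries 3, 12 and 13, against 23, 30 and 11 in WT Ago libraries 1, 9 and 10. That is 18.9 ± 7.02 RPM in KO and 66.4 ± 12.3 in WT (SD, n = 3 each), with no overlap. The fitted log2 change was -2.11 ± 0.41 (SE; edgeR quasi-likelihood adjusted p = 0.0012). The peak reached the count filter through its WT Ago libraries alone, so that it could be tested only because WT was high. The IgG libraries held 1 read in KO and 2 in WT. A peak with a 7-mer-m8 match to miR-144-3p lies 66 nt downstream and held 12, 14 and 10 reads in KO Ago and 14, 37 and 8 in WT Ago, or 56.3 and 56.4 RPM on average, so the 2 neighbouring peaks did not move together. The other Cyth3 peaks with no code of the locus averaged 110 RPM in KO Ago and 72.7 in WT Ago.

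The other 8-mer peaks described from here on, apart from Lbr, Hells and those of the authors' deposited table, are named after their values were seen. Sgk3, a serine/threonine kinase of endosomes, had a 3′UTR peak at chromosome 1, 9898720 to 9898743, with 2, 2 and 0 reads in KO Ago and 19, 14 and 9 in WT Ago. The ratio of summed RPM was 0.131 (exact 95% counting interval 0.0342 to 0.361), and no IgG library held a read. The counts of this peak coincided within 10% with those of a peak assigned to Slc25a5 on chromosome X, so its assignment is uncertain. Trim59, a RING-type E3 ligase, had a 3′UTR peak at chromosome 3, 69036187 to 69036209, with 0, 2 and 1 reads in KO Ago and 7, 10 and 7 in WT Ago, a ratio of 0.172 (0.0332 to 0.567). An intergenic peak on chromosome 10 had the same counts in all 12 libraries, so the reads cannot be assigned to either copy. Mki67, the Ki-67 protein that coats mitotic chromosomes, had a coding 8-mer peak with 2, 2 and 0 reads in KO Ago and 11, 8 and 3 in WT Ago, and a counting interval of the ratio of 0.0627 to 0.737. In each of these peaks all KO Ago libraries lay below all WT Ago libraries.

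Further 8-mer peaks without overlap had fewer reads. Mcm5, a subunit of the replicative helicase, had a coding peak with 2, 1 and 0 reads in KO Ago and 8, 9 and 4 in WT Ago. Tnrc6b, a scaffold of the Ago silencing complex, had a coding peak with 0, 3 and 2 reads in KO Ago and 7, 7 and 6 in WT Ago, with a ratio of 0.344 (0.101 to 0.945). Hells, a chromatin remodeller needed for DNA methylation, had 0, 0 and 1 reads in KO Ago and 7, 5 and 3 in WT Ago. These 3 peaks again showed no overlap between the groups. Hells held a second 8-mer peak at chromosome 19, 38951835 to 38951853, where not every KO Ago library lay below every WT Ago library. Acss1, the mitochondrial acetyl-CoA synthetase, had a coding peak with no read in any KO Ago library and 7, 2 and 6 reads in WT Ago, at least 3.63-fold lower in KO when 3 reads over the group stand in for 0.

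Other deep 8-mer peaks did not pass the test or overlapped. Lbr, the lamin B receptor of the inner nuclear membrane, had a coding peak at chromosome 1, 181838381 to 181838419, with 7, 5 and 10 reads in KO Ago and 18, 15 and 11 in WT Ago. Its fitted log2 change of -0.72 ± 0.47 (SE) did not pass the edgeR quasi-likelihood test (adjusted p = 0.38), and its other peaks without a code of the locus averaged 382 RPM in KO Ago and 634 in WT Ago. Atp2b4, a plasma membrane calcium pump, had a 3′UTR 8-mer peak with 3, 14 and 4 reads in KO Ago and 8, 19 and 5 in WT Ago, with overlapping levels and a ratio of 0.904 (0.495 to 1.62). An intergenic 8-mer peak on chromosome 5 held 16 reads in KO Ago and 13 in WT Ago, a ratio of 1.69 (0.764 to 3.83).

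**Figure D4:**
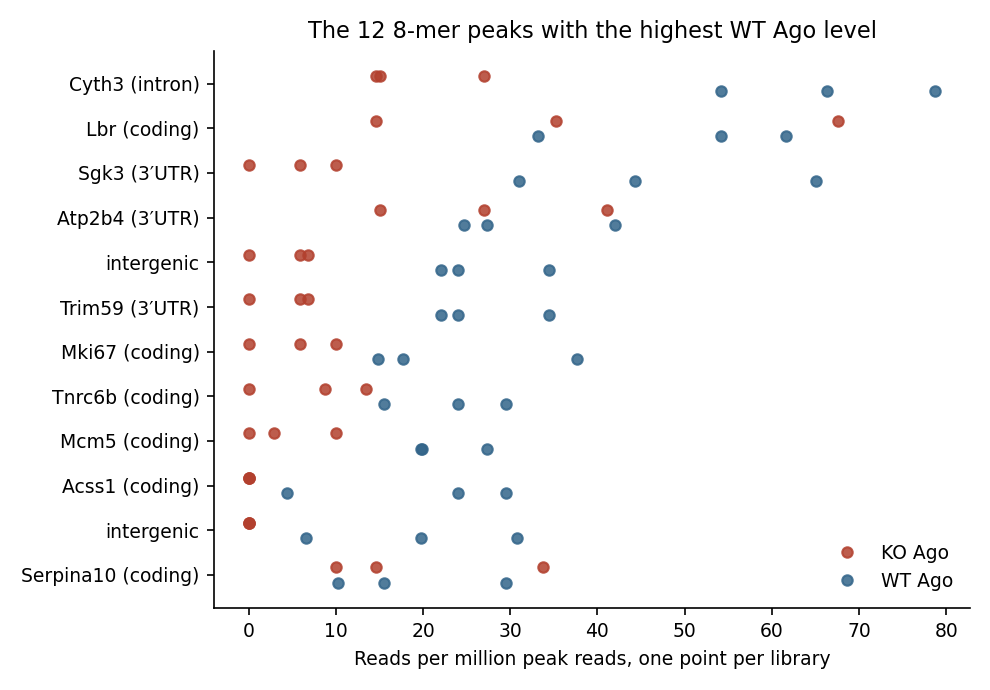
RPM of the 12 8-mer peaks with the highest mean level in WT Ago libraries, 1 point per library (KO red above, WT blue below); points at 0 overlie each other. KO libraries lie left of all WT libraries for Cyth3, Sgk3, Trim59 and its intergenic copy, Mki67, Tnrc6b, Mcm5, Acss1 and the second intergenic peak, and overlap them for Lbr, Atp2b4 and Serpina10. Choosing peaks by their WT level favours those that are lower in KO. Over all 64 8-mer peaks, KO lay below WT without overlap for 20 (31.3%). Trim59 and its copy have the same counts.

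The test per peak reached only the deepest members. Of the 438 members, 15 passed the filter on low counts in the comparison of KO with WT Ago libraries, and of these only Cyth3 was called lower and none was called higher by edgeR's quasi-likelihood F-test (Benjamini-Hochberg over 2425 tested peaks). Cyth3 was also the only member with an unadjusted p under 0.05. Over all tested peaks 17.6% were lower (428) and 1.4% higher (34). The DESeq2 Wald test called 1 member lower and none higher, against 15.4% and 0.289% of all tested peaks, and limma-voom also 1 and none, against 17.3% and 1.24%. The median log2 change of the tested members was 0.21, against 0.09 for all tested peaks and 0.21 for tested peaks without a code of the locus. Among tested miR-144-3p seed peaks, whatever their other codes, 62 of 135 were lower (median -1.03), and among miR-451a seed peaks, likewise, 79 of 84 (median -3.45).

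**Figure D5:**
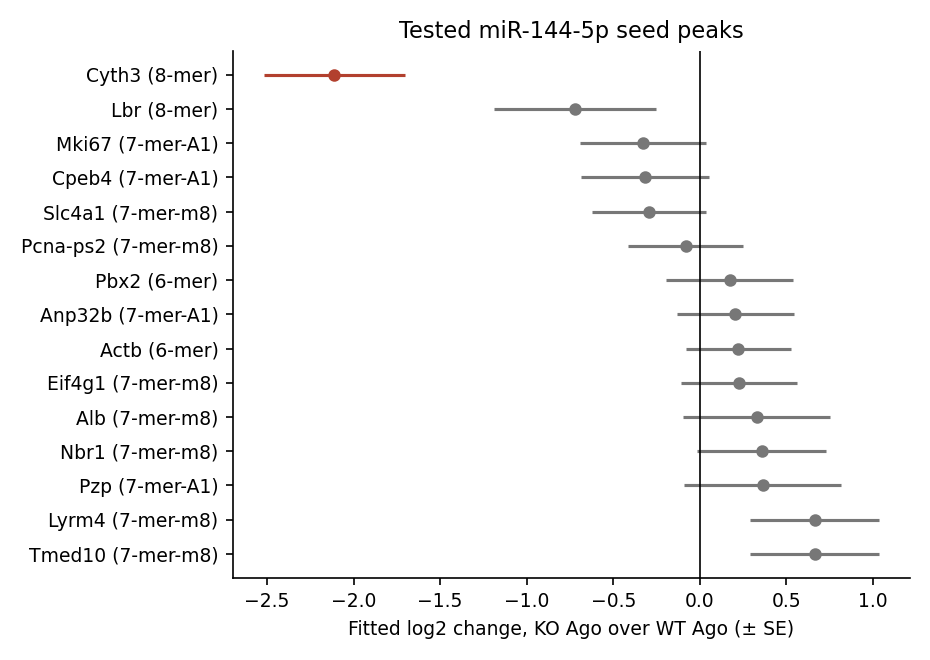
Fitted log2 change of KO Ago over WT Ago with its standard error for the 15 tested miR-144-5p seed peaks, with the match length in brackets and the one called peak in red. Cyth3 lies at -2.11 and the other 14 lie between -0.72 and 0.66.

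The other 14 tested members did not pass the test, and 13 of them carried a 6-mer or 7-mer. Slc4a1, the band 3 anion exchanger of red cells, had a coding 7-mer-m8 peak with 17, 22 and 12 reads in KO Ago and 22, 44 and 12 in WT Ago (log2 change -0.29 ± 0.33, SE). Actb, cytoplasmic actin, had a coding 6-mer peak with 34, 37 and 19 reads in KO Ago and 31, 37 and 23 in WT Ago (0.22 ± 0.30). Anp32b, a histone chaperone, had a coding 7-mer-A1 peak with 38, 34 and 25 reads in KO Ago and 44, 38 and 20 in WT Ago (0.21 ± 0.34). None of the 3 separated the genotypes. Alb, serum albumin of hepatocytes, held 19, 36 and 26 reads in KO Ago and 16, 22 and 34 in WT Ago (0.33 ± 0.42), where library 10 alone held most of the WT RPM.

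The largest positive values belonged to Tmed10, a cargo receptor of the early secretory pathway, and Lyrm4, a factor of iron-sulfur cluster assembly. Both 7-mer-m8 peaks had 12, 32 and 16 reads in KO Ago and 8, 25 and 12 in WT Ago, the same counts in every library, so they rest on the same reads (0.66 ± 0.37, SE; edgeR quasi-likelihood adjusted p = 0.29). The remaining tested members were Eif4g1, a scaffold of translation initiation (0.23), Nbr1, an autophagy receptor (0.36), Pbx2, a homeodomain transcription factor (0.17), Pzp, a plasma protease inhibitor (0.36), Mki67 at its 7-mer-A1 peak (-0.33), an intron 7-mer-A1 peak of Cpeb4 (-0.32) and Pcna-ps2, a pseudogene of the replication clamp gene Pcna (-0.08). The Mki67 gene thus had a 7-mer-A1 peak with 30 reads in KO Ago and 45 in WT Ago beside its 8-mer peak with 4 and 22. Tuba4a, an alpha tubulin, was among the highest members in WT Ago but was not tested, and its 3′UTR 7-mer-m8 peak held 9, 8 and 2 reads in KO Ago and 23, 16 and 8 in WT Ago.

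A looser filter, with a minimum count of 5, brought 53 members to the test. There 4 of 7 8-mer peaks were lower in KO, with a median log2 change of -2.14 over the 7, against 1 of 21 6-mer peaks and none of 12 7-mer-A1 or 13 7-mer-m8 peaks. Of all peaks tested under that filter 13.3% were lower. The 8-mer peaks were those of Cyth3, Sgk3 (log2 change -3.10 ± 0.63, SE; edgeR quasi-likelihood adjusted p = 0.001) and the pair of Trim59 and its intergenic copy (-2.67 ± 0.76, adjusted p = 0.017), which count the same reads. Peaks with few KO reads pass such a filter through their WT reads, so these counts describe the peaks that passed and not all 8-mers.

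The 6-mer peak that was lower under that filter lay in Cand1, an exchange factor of cullin ubiquitin ligases, with 3, 3 and 0 reads in KO Ago and 10, 24 and 5 in WT Ago. Its log2 change was -2.37 ± 0.60 (SE; edgeR quasi-likelihood adjusted p = 0.0069), and it reached the filter through its WT Ago libraries alone. A peak with a 6-mer match to miR-451a lies 50 nt away and held 0, 3 and 1 reads in KO Ago and 25, 31 and 8 in WT Ago. Here the neighbouring peaks were both lower in KO, unlike those of Cyth3. Peaks coded for a mismatched miR-144-3p site lay near other 8-mer peaks too. That near Trim59 (21 nt) averaged 1.95 RPM in KO Ago and 17.7 in WT Ago, and that near its intergenic copy (19 nt) 0.977 and 7.38. Near Lbr (3 nt) the values were 1.68 and 10.5, and near Ccnb1 (32 nt) 1.95 and 4.26. Near Net1 (45 nt) they were 10.7 and 10.8, and near an intergenic peak on chromosome 7 (152 nt) 5.88 and 4.83. Their part in the 8-mer difference was not tested. The 1 member that was higher was an intron 6-mer peak of Cpeb4, with 5, 10 and 4 reads in KO Ago and 2, 2 and 0 in WT Ago (2.35 ± 0.78, adjusted p = 0.046), which reached the filter through its KO Ago libraries alone, while 0.59% of all peaks were higher under that filter.

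The authors' deposited table of differential peaks listed 25 members among 6651 peaks. Of the 25 members, 8 were lower in KO in the authors' deposited table at a false discovery rate under 0.05 (32%) and none was higher, against 35.7% of all listed peaks lower and 1.29% higher. The share lower was near that of the whole table. All 7 listed 8-mers had negative values in the authors' deposited table, as did 4890 of the 6651 listed peaks. Of the 7, 3 were below its threshold (42.9%, against 35.7% of all listed peaks). These were an intergenic peak on chromosome 11 (log2 -3.48), Cyth3 (-2.45) and Hells (-3.02). The other 5 in the authors' deposited table were Ctnnd2, a catenin of cell junctions (log2 -3.19), Tbk1, a kinase of innate immune signalling (-3.17), Gm10094 (-1.89), Far1, a peroxisomal fatty acyl-CoA reductase (-1.77), and an intergenic peak on chromosome 14 (-2.03). The counts behind some of these were small. Ctnnd2 had no read in KO Ago and 4, 4 and 3 in WT Ago, and Tbk1 no read in KO Ago and 3, 6 and 2 in WT Ago. Far1 had 2, 9 and 1 reads in KO Ago and 11, 15 and 6 in WT Ago.

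Gene lists held few members, and over the whole series 438 of 106382 peaks were members. Erythroid genes held 7 members among 1155 peaks, with 114 KO Ago reads and 177 WT Ago reads in all. Among them were peaks in Slc4a1, Sptb (beta spectrin), Tfrc (transferrin receptor), Ermap (a red cell adhesion protein) and Abcb10 (a mitochondrial transporter). Only the Slc4a1 peak was tested of the 7, and it did not pass. Hepatocyte genes held 3 members among 444 peaks, in Alb and Apob, with 95 KO Ago reads and 83 WT Ago reads. The macrophage, megakaryocyte and granulocyte lists held none among 43, 12 and 90 peaks, too few peaks to read this as an absence. Ago pathway genes held 2 members among 376 peaks. Xpo5, which exports microRNA precursors, held a 7-mer-m8 peak with 1 read in KO Ago and 9 in WT Ago, beside the Tnrc6b 8-mer peak.

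Genes reported as miR-144-5p targets in human cells held 3 members among 63 peaks. Matches with another code of the locus were left out by the rule. Of 5 such genes, Ccne2, a cyclin of S phase entry, held 2 members and Cdc25a, a phosphatase that activates cyclin-dependent kinases, held 1, with 29 KO Ago reads and 29 WT Ago reads in all. All 3 were too shallow for the test. The 3′UTR peak of Ccne2 held 2, 15 and 3 reads in KO Ago and 2, 10 and 2 in WT Ago, with overlapping levels. Reported targets of miR-144-3p or miR-451a held 3 members among 368 peaks, with 24 KO Ago reads and 33 WT Ago reads. These were a pair in Foxo3, a stress-response transcription factor, and 1 in Rictor, a subunit of mTOR complex 2.

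Ago was set against IgG to see which members exceeded the background of the precipitation, and the answer depended on the scaling. Actb averaged 136 RPM in KO Ago and 98.5 in KO IgG, and 100 in WT Ago and 76.2 in WT IgG. Anp32b averaged 153 RPM in KO Ago and 96.8 in KO IgG, and 111 in WT Ago and 71.5 in WT IgG. Alb averaged 126 RPM in KO Ago and 114 in KO IgG, but 90.3 in WT Ago and 145 in WT IgG. Ago and IgG libraries overlapped for all 3 peaks in both genotypes, and the IgG levels rest on 8 to 15 reads each.

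With libraries scaled to the reads of the tested peaks by TMM, these 3 members were the ones tested in KO and all were higher in Ago, where 40% of 645 tested peaks were higher. The log2 values were 3.18 ± 0.48 for Actb, 2.90 ± 0.52 for Alb and 3.09 ± 0.62 for Anp32b (SE; edgeR quasi-likelihood adjusted p = 0.00087, 0.0014 and 0.0021). In WT, the same 3 of 4 tested members were higher in Ago, where 35.9% of 894 tested peaks were, with 2.78 ± 0.56 for Anp32b, 2.45 ± 0.62 for Actb and 1.44 ± 0.52 for Alb (adjusted p = 0.00089, 0.0034 and 0.023). Actb in both genotypes and Anp32b in WT would have reached the count filter through their 3 Ago libraries alone, so their calls describe peaks that passed where Ago was deep. Scaled to the reads of all peaks, an alternative chosen after seeing the data, no member was higher in KO, where 4.34% of tested peaks were, or in WT, where 6.38% were. The log2 values then were 0.51 for Actb, 0.21 for Alb and 0.45 for Anp32b in KO, and 0.56 for Anp32b, 0.25 for Actb and -0.73 for Alb in WT. The median of all tested peaks moved to -2.86 in KO and -2.38 in WT on that scale, against -0.17 and -0.14 with TMM. None of these peaks is therefore called above IgG here.

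The remaining tested member in WT, an intergenic 6-mer peak on chromosome 10 at 115739063, held 2, 6 and 4 reads in WT Ago and 4, 5 and 4 in WT IgG. It reached the count filter through its WT IgG libraries alone, and its log2 value was -0.93 ± 0.39 with TMM (adjusted p = 0.12) and -3.20 scaled to all peaks (edgeR quasi-likelihood adjusted p = 4.5e-07). No 8-mer peak passed the count filter of this comparison.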

How the data were processed

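HITS-CLIP libraries of mouse fetal liver were analysed from the deposited peak table. The submitters' processing notes name cutadapt, STAR, bedtools and limma, and the mm10 build. No source used here gives their versions. The deposited counts are raw reads overlapping a peak by at least 16 nt, with peaks called on pooled Ago libraries. The authors' deposited maximum coverage per library, a signal with no depth scaling, served as an alternative level. The authors' deposited IgG ratio sets IgG peak heights against those of Ago. The authors' seed codes are a score of the best match. The authors' deposited differential table gives log2 fold changes, p-values and false discovery rates, which were described and not recomputed.

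Levels are reads per 1000000 reads in all peaks (RPM). Reads were tested with edgeR 4.0.16 (quasi-likelihood, TMM on the tested peaks, filterByExpr with minimum count 10 and minimum total 15) in R 4.3.3, with Benjamini-Hochberg adjustment over all tested peaks and a threshold of 0.05, and checked on simulated counts. Alternatives were DESeq2 1.42.0, limma 3.58.1 (voom), other scalings, filters and member rules, and each library left out. Each fit used the 6 libraries it compares. Intervals are exact at 95% and, like the bound from 3 reads, cover counting error only. RefSeq symbols matched 343 of 355 gene names, and synonyms 11 more.

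Members and lists were chosen with earlier results of these data known. Named are called members, the 10 smallest p in each direction, the 10 highest in WT Ago, tested 8-mers, up to 3 tested members of each list, genes with several tested members and up to 10 called in the authors' deposited table; others are named as chosen after their values were seen.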

Additional observations from a re-analysis of the deposited data

How the results depend on the processing

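The Cyth3 call and its direction held in all 13 alternatives tried for it, with log2 changes of -2.26 to -1.90. The 8-mer difference stayed between -1.19 and -0.82 (log2) in all 13 alternatives, which were chosen after seeing the data. Scaled to the reads of peaks without a code of the locus, the 7-mer-m8, 7-mer-A1 and 6-mer differences were -0.30, -0.26 and -0.00096. In KO against WT, no filter on low counts gave 2704 lower peaks (2.54% of 106381 tested) with 13 lower members of 438. The member median was then -0.48, against -0.17 for all tested peaks. A minimum count of 5 gave 1259 lower peaks (13.3%) and 56 higher peaks (0.59%), with 5 lower and 1 higher of 53 tested members. Library size alone gave 69 higher peaks and a median of 0.37, and the DESeq2 Wald test 7 higher peaks. Scaling to the reads of all peaks, chosen after seeing the data, gave 83 higher peaks and a median of 0.44, and moved the median of all tested peaks to 0.30 against 0.09; in Ago against IgG it gave 28 higher peaks and 0 higher members in KO and 57 and 0 in WT, with Alb at -0.73 in WT. With any code of miR-144-3p or miR-451a allowed, 2 members were lower and the median was -0.0504. Leaving out each library gave 304 to 986 lower peaks (14.2 to 20.7% of those tested) and 3 to 54 higher peaks (0.14 to 1.44%). It gave 1 to 3 lower members and medians of 0.0281 to 0.15. Some uncalled values changed sign. With each library left out, Pbx2 lay between -0.11 (without WT library 1) and 0.42, and was -0.0584 without KO library 12. Pcna-ps2 lay between -0.28 and 0.0768 (without WT library 1), was 0.0721 without KO library 12 and 0.0592 without KO library 13, and was 0.0801 by library size alone and 0.15 scaled to all peaks. Alb lay between -0.0207 and 0.96 and Pzp between -0.0795 and 0.69, both lowest without WT library 1. The cause was not tested. In Ago against IgG, no filter gave 1865 higher peaks (1.86% of those tested) and 11 higher members in KO. In WT it gave 4303 (4.06%) and 30. A minimum count of 5 gave 791 (40.5%) and 9 of 10 tested members in KO, and 1190 (38.8%) and 7 of 13 in WT. Leaving out each library gave 46 to 697 higher peaks in KO (14.9 to 37% of those tested) and 47 to 1081 in WT (19.6 to 41.5%). Without an IgG library 7 to 10 members were higher in KO and 7 to 9 in WT, and no member was tested without an Ago library. Different filters test different numbers of peaks. No paired analysis was possible because the groups share no library numbers. The median member held 11 Ago reads and 15 of 438 were tested, so most single peaks are below what the test can reach at this depth.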
